A study of Mus musculus with 6 samples.

Results

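The enzymes and carriers that bring pyruvate into mitochondria, turn the citric acid cycle, refill it and move its reducing equivalents across the inner membrane were examined in mouse skeletal muscle injected with a virus for TFEB. The list held 35 genes in 4 roles, which were pyruvate entry, the cycle itself, anaplerosis and the shuttles. A gene counted as measured where a probe set of the array carried its symbol and no other. By this rule 31 of the 35 genes were measured, of 12393 genes on the array in all. Mpc2, Pdhx, Slc25a12 and Slc25a1 had no such probe set.

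The tested muscles came from 3 C57BL/6 mice injected intramuscularly with an adeno-associated virus for murine TFEB, and the control muscles from 3 other C57BL/6 mice injected with a virus for GFP. TFEB is a transcription factor best known as an activator of lysosome and autophagy genes. The comparison asks which transcripts of these pathways differ in muscle that received TFEB. Per the study, both vectors were AAV2.1 with the CMV promoter, which is not specific to muscle fibres, and the muscles were taken some weeks after injection. The labels give all 6 mice the age of 1 month, but the study describes adult mice, and the age could not be settled. Each mouse gave 1 Affymetrix array, which the labels number as biological replicates 1 to 3 of each group. Values are on a log2 scale, as the authors deposited them, so that 1 unit is a doubling, and levels are not compared between probe sets.

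Pyruvate from glycolysis crosses the inner membrane through the mitochondrial pyruvate carrier and is oxidised to acetyl-CoA by the pyruvate dehydrogenase complex, which pyruvate dehydrogenase kinases switch off by phosphorylation. The cycle oxidises acetyl-CoA and passes electrons to the respiratory chain. Pyruvate carboxylase and glutamate dehydrogenase feed carbon into the cycle at oxaloacetate and oxoglutarate, malic enzymes exchange carbon between malate and pyruvate, and the malate-aspartate shuttle carries cytosolic reducing equivalents into the matrix. Skeletal muscle is known for a flux through pyruvate dehydrogenase and the cycle that varies widely between rest and exercise.

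TFEB binds the E-box CACGTG and favours the longer form TCACGTGA, which contains it. The promoter windows of the members, from 250 bases before to 50 bases after each RefSeq start on GRCm38.p6, were therefore searched on both strands, and 34 of the 35 genes had a window. CACGTG was in a window of 5 of these 34 genes (14.7%), against 8.09% of all 27025 genes, and TCACGTGA in 0 of 34, against 1.12% of all. The 5 genes were Ogdh, Pcx, Pdk2, Slc25a13 and the unmeasured Slc25a1. The stretches of the 4 measured genes are shown because they hold each of the E-boxes found in genes with values below, with the motif in capitals and each read 5′ to 3′ on the strand of the gene.
Ogdh, chr11:6292048-6292077, plus strand, 110 bases before the start: gtcgcggcgtgtCACGTGgaccggtcgctc
Ogdh, chr11:6292405-6292434, plus strand, 141 and 162 bases before 2 further starts: ggcaagaatcctCACGTGgataccatgtaa
Pcx, chr19:4510222-4510241, plus strand, 248 bases before the start: ccCACGTGaggctttcaaga
Pdk2, chr11:95041480-95041509, minus strand, 126 bases before the start: ctcgaggagagcCACGTGtcgaagcgcaag
Slc25a13, chr6:6217281-6217310, minus strand, 125 bases before the start: cacagtctgagtCACGTGtcctggcccctc
A match describes the letters of the window and was not tested as a binding site. The motif TCAAGGTCA of the estrogen-related receptors, factors known for activating oxidative metabolism, was in 0 of 34 member genes and 0.466% of all. The nuclear respiratory factor 1 motif GCGCATGCG was in 1 member, Ogdh, and in 1.95% of all genes.

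The arrays were even in scale, with medians between 6.44 and 6.56. Among the TFEB arrays 45 to 101 probe sets differed over 2-fold between any pair. Among the GFP arrays replicate 2 stood apart, with 844 and 725 such probe sets against replicates 1 and 3, which between them had 87, so counts are also given without it. The single Tfeb probe set was lower in the TFEB muscles (7.92, 7.68 and 7.61, against 8.49, 8.47 and 8.58 in the GFP muscles), and the sources used here do not say whether it lies within the delivered cDNA. Each group name therefore stands for what was injected. As a check of the tissue, the 15 measured fast fibre contractile genes had a median GFP mean of 14.1, near the top of the arrays' range.

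The groups were compared by limma with adjustment for all 22626 probe sets tested, and the threshold combined an adjusted p under 0.05 with a fold change of at least 1.5. Of the 31 measured members, 3 fell past this threshold, namely Me1, Pcx and Suclg2 (9.68%, against 4.9% of all genes), and 0 rose past it, against 8.62% of all genes. The highest log2 fold change, 0.57 for Pdhb, lay under the fold limit of 0.585. No member could thus rise past the threshold under any test of these same differences. That includes an unmoderated two-sided test without limma's pooling of variances. At an unadjusted limma p under 0.05, 9 members were higher and 6 lower, against 2692 and 2999 of all 12393 genes. With no fold limit, 7 members were higher at an adjusted p under 0.05 (22.6%, against 16.8% of all genes) and 6 were lower (19.4%, against 16.8%). The groups did not overlap for 19 members (61.3%, against 51.1% of all genes), 13 of them higher and 6 lower in TFEB muscles. The shares without the fold limit and of groups apart thus lay near those of all genes. The median log2 fold change of the members was 0.094, against -0.046 over all genes, and the median size of the change without its sign was 0.24, against 0.23.

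**Figure D1:**
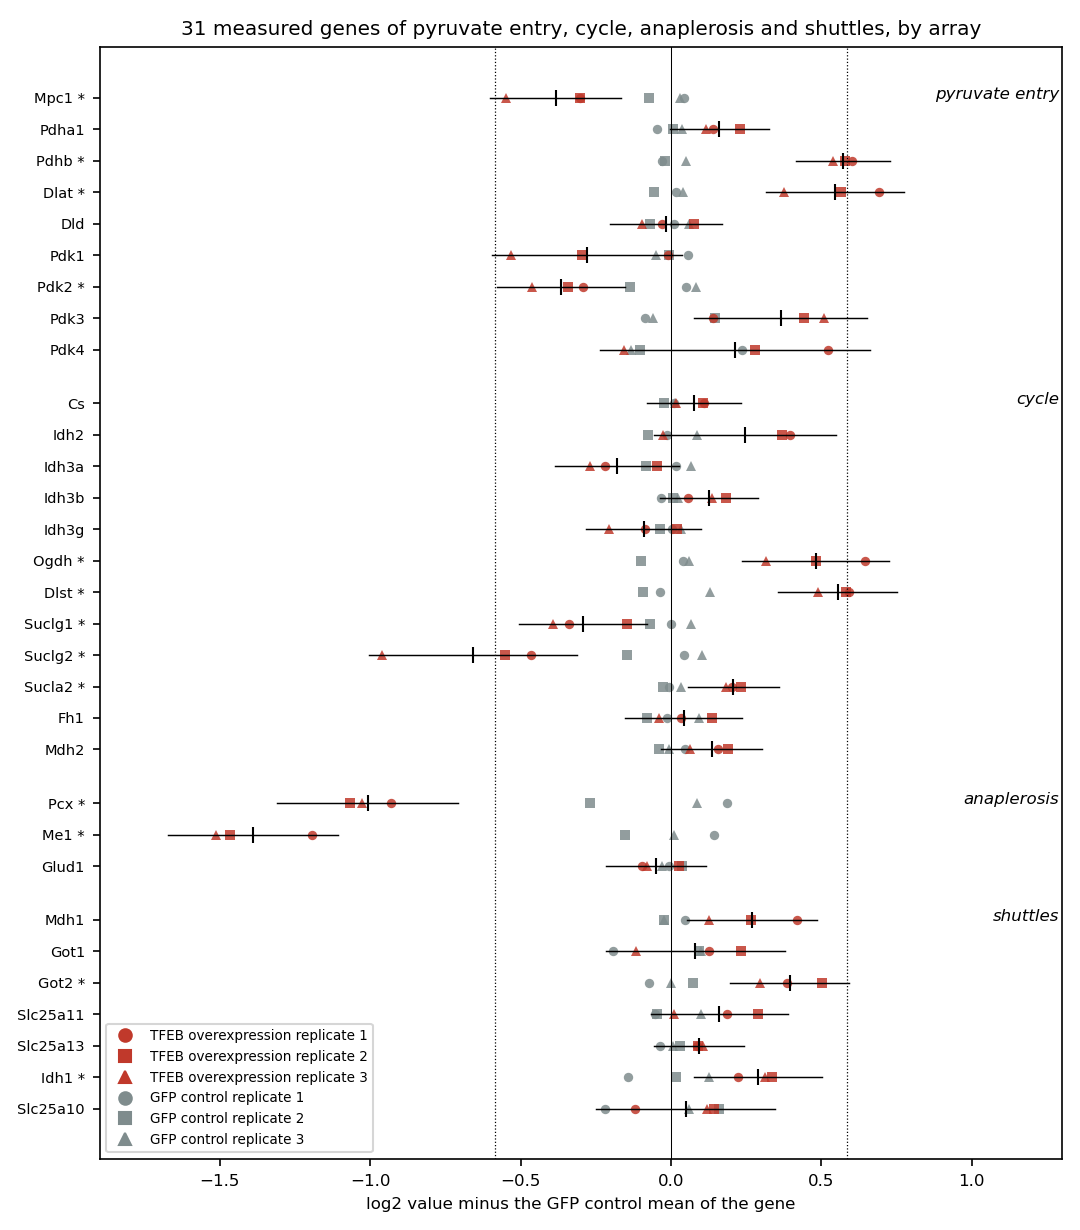
Each of the 31 measured genes by array: the horizontal axis is the log2 value minus the GFP control mean of that gene, red symbols are TFEB overexpression and grey symbols GFP control replicates, the black tick with its line is the log2 fold change with its 95% confidence interval, dotted lines mark the 1.5-fold limit, and a star marks a limma adjusted p under 0.05. Me1, Pcx and Suclg2 lie beyond the lower limit, and no gene's tick lies beyond the upper limit.

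The largest changes among the members were in anaplerosis. Me1, the cytosolic malic enzyme that turns malate into pyruvate and yields NADPH, was read at 10.14, 9.87 and 9.82 in TFEB muscles and at 11.48, 11.18 and 11.35 in GFP muscles. The lowest GFP array stood more than 1 log2 unit above the highest TFEB array. The fall was 2.62-fold (log2 fold change -1.39 ± 0.12 SE, n = 3 per group, limma adjusted p = 0.00086), and only 0.468% of all genes had a lower or equal log2 fold change. A second Me1 probe set gave 9.48, 9.54 and 9.32 in TFEB muscles and 11.08, 10.79 and 11.05 in GFP muscles, a log2 fold change of -1.53.

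Pcx, pyruvate carboxylase, the enzyme that makes oxaloacetate from pyruvate, was at 7.60, 7.47 and 7.51 in TFEB muscles and at 8.72, 8.27 and 8.62 in GFP muscles. All 3 TFEB arrays were below all 3 GFP arrays, and GFP control replicate 2 was the lowest of its group. Pcx fell 2.01-fold (log2 fold change -1.01 ± 0.13 SE, limma adjusted p = 0.0024), and by 1.14 on the log2 scale without GFP control replicate 2. The platform also assigns 4 Affymetrix control probe sets to Pcx, which read different segments of the murine transcript and were left out of the fit with the other controls. From the 5′ segment through middle segments A and B to the 3′ segment, their differences were -1.06, -0.91, -1.27 and -1.01, with TFEB and GFP arrays apart on each.

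**Figure D2:**
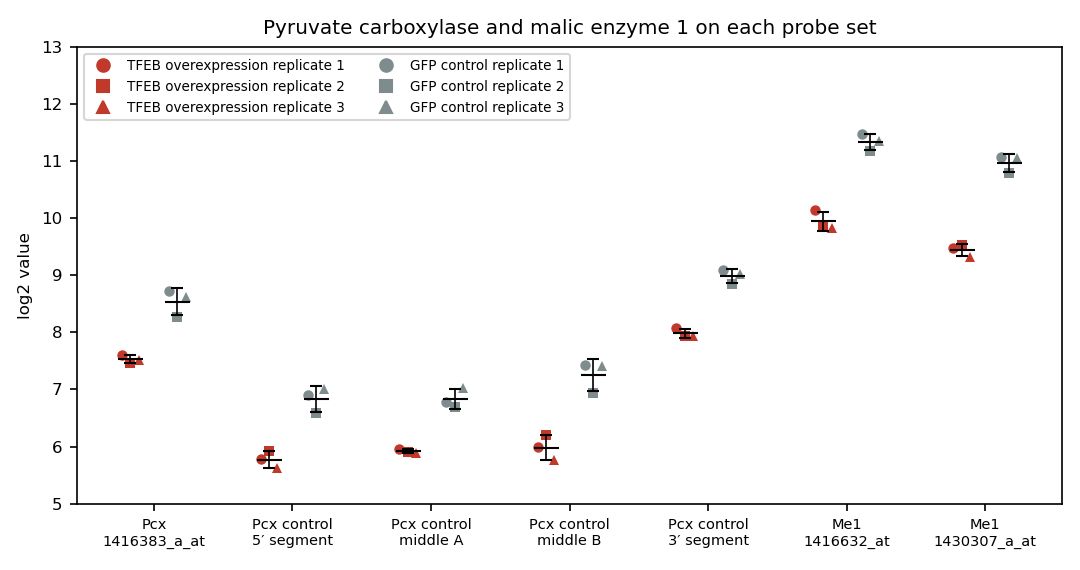
Log2 values of Pcx on its regular probe set and its 4 control probe sets, and of Me1 on its 2 probe sets, with TFEB overexpression (red) left of GFP control (grey) and bars for mean ± SD over 3 arrays. On each of the 7 probe sets all 3 TFEB values lie under all 3 GFP values.

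The remaining anaplerotic gene, Glud1, glutamate dehydrogenase, did not pass the test (log2 fold change -0.05 ± 0.069 SE, 95% confidence interval -0.22 to 0.12, adjusted p = 0.61). For Me1 and Pcx the calls held under each of the 17 alternative settings tried, with log2 fold changes between -1.53 and -1.32 for Me1 and between -1.14 and -0.92 for Pcx. Not every setting could lose these calls. Pcx had 1 probe set in the fit, so other choices of probe set could not change its log2 fold change. The choice of the smallest p favours a call. Because whole muscle was profiled, fewer cells of a type and less RNA per cell cannot be told apart. Me1 and Pcx are also abundant in fat, so adipocyte markers are given beside them. Of 12 such markers 10 were measured, 0 passed the threshold in limma, and 5 were lower and 1 was higher at an unadjusted p under 0.05. Adiponectin (Adipoq), the defining one, was at 6.73, 7.99 and 7.90 in TFEB muscles and at 8.69, 8.04 and 9.45 in GFP muscles (log2 fold change -1.19 ± 0.45 SE, adjusted p = 0.084). Fabp4, a fatty acid binding protein also found in endothelium, was the single marker at an adjusted p under 0.05 and was higher in TFEB muscles (0.38 ± 0.12 SE, adjusted p = 0.0455). Pparg (0.15) and Car3 (0.09) were not lower either. The others were all lower in their means, namely Cidec (-0.76), Retn (-0.74), Scd1 (-0.56), Pck1 (-0.38), Lpl (-0.34) and Lep (-0.32). The median log2 fold change of the markers was -0.36. The mean deviation of the 10 markers from their 6-array means ran from -0.39 to -0.057 in TFEB muscles and from -0.10 to 0.52 in GFP muscles. None of the 10 was listed at 0, and their part in the fall of Me1 and Pcx was not tested.

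In pyruvate entry, 9 of 11 genes were measured. None reached the fold limit either way, with log2 fold changes from -0.38 to 0.57. None could thus pass the threshold in limma or in the unmoderated test. At an unadjusted limma p under 0.05, 3 were higher and 2 lower, against 2692 and 2999 of all 12393 genes. The median log2 fold change was 0.16, and with no fold limit 2 genes, Pdhb and Dlat, were higher and 2, Mpc1 and Pdk2, lower at an adjusted p under 0.05 (22.2% each way, against 16.8% of all genes).

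Pdhb, the beta subunit of the decarboxylating component, was at 12.43, 12.41 and 12.37 in TFEB muscles and at 11.80, 11.81 and 11.88 in GFP muscles. The groups were apart, and the spread within each was under 0.05 SD. The difference of 0.57 ± 0.065 (SE, limma adjusted p = 0.0018), or 1.49-fold, was just under the fold limit. It lay just above when TFEB overexpression replicate 3 (0.589) or GFP control replicate 3 (0.597) was left out. Dlat, the acetyltransferase core of the complex, was at 11.17, 11.05 and 10.86 in TFEB muscles and at 10.50, 10.42 and 10.52 in GFP muscles. It too was higher on every TFEB array, with a log2 fold change of 0.54 ± 0.096 (SE, adjusted p = 0.0072), and 0.63 without TFEB overexpression replicate 3.

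Pdha1, the alpha subunit that carries the phosphorylation sites, was at 12.37, 12.46 and 12.35 in TFEB muscles and at 12.19, 12.24 and 12.27 in GFP muscles. The groups were apart, but the difference of 0.16 ± 0.069 (SE) missed the test at an adjusted p of 0.12. Dld, the dihydrolipoamide dehydrogenase that several such complexes share, differed by -0.02 ± 0.078 (SE, 95% confidence interval -0.20 to 0.17, adjusted p = 0.89).

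Mpc1, the measured subunit of the mitochondrial pyruvate carrier, was at 12.37, 12.37 and 12.13 in TFEB muscles and at 12.72, 12.60 and 12.71 in GFP muscles. All TFEB arrays were lower, by a log2 fold change of -0.38 ± 0.092 (SE, adjusted p = 0.021). The call was lost at an adjusted p of up to 0.072 when TFEB overexpression replicate 3, GFP control replicate 1 or GFP control replicate 3 was left out, and at 0.056 in the unmoderated test.

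The 4 pyruvate dehydrogenase kinases did not share a direction. Pdk2, a broadly expressed kinase, was at 10.21, 10.16 and 10.04 in TFEB muscles and at 10.55, 10.36 and 10.58 in GFP muscles. It was lower on every TFEB array (log2 fold change -0.37 ± 0.089 SE, adjusted p = 0.022), though this call was lost without TFEB overexpression replicate 2 or 3 or without GFP control replicate 1 or 3, where the adjusted p reached 0.079, and in the unmoderated test (0.055). Pdk4, the kinase known to be induced by fasting, was at 12.59, 12.35 and 11.91 in TFEB muscles and at 12.30, 11.97 and 11.94 in GFP muscles. These groups overlapped, and the difference of 0.21 ± 0.19 (SE, 95% confidence interval -0.23 to 0.66, adjusted p = 0.41) was the least precise among the members. Pdk3 was at 6.17, 6.48 and 6.54 in TFEB muscles and at 5.95, 6.18 and 5.97 in GFP muscles, with an overlap at a single pair of arrays (0.36 ± 0.12 SE, adjusted p = 0.058). It passed at an adjusted p under 0.05 without TFEB overexpression replicate 1 or GFP control replicate 2. The same held with fast fibre scaling, the filter on dim probe sets and array weights. Pdk1, a kinase known to be induced in hypoxia, differed by -0.28 ± 0.13 (SE, adjusted p = 0.15) and was at 8.12, 7.83 and 7.60 in TFEB muscles against 8.18, 8.12 and 8.08 in GFP muscles. Without TFEB overexpression replicate 1 it passed (-0.41, adjusted p = 0.037), and without TFEB overexpression replicate 3 it was at -0.15.

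In the cycle all 12 genes were measured. Suclg2 fell past the threshold (8.33%, against 4.9% of all genes). The highest log2 fold change was 0.55, under the fold limit, so 0 genes could rise past the threshold. At an unadjusted limma p under 0.05, 3 were higher and 2 lower, against 2692 and 2999 of all 12393 genes. In the unmoderated test 0 cycle genes passed in either direction. With no fold limit, Ogdh, Dlst and Sucla2 were higher (25.0%, against 16.8% of all genes) and Suclg1 and Suclg2 lower (16.7%, against 16.8%), around a median log2 fold change of 0.10.

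Ogdh, the decarboxylating component of the oxoglutarate dehydrogenase complex, was at 11.57, 11.41 and 11.24 in TFEB muscles and at 10.96, 10.82 and 10.98 in GFP muscles. Its windows held both Ogdh E-boxes shown above. Of the other measured genes with an E-box, Pcx and Pdk2 were lower and Slc25a13 missed the test. The Ogdh groups were apart, with a log2 fold change of 0.48 ± 0.10 (SE, adjusted p = 0.014, or 0.051 in the unmoderated test). Dlst, the succinyltransferase core of the same complex, was at 11.50, 11.49 and 11.40 in TFEB muscles and at 10.87, 10.82 and 11.04 in GFP muscles. Each TFEB array was above each GFP array, and the log2 fold change of 0.55 ± 0.083 (SE, adjusted p = 0.0043), or 1.47-fold, reached the fold limit without TFEB overexpression replicate 3 (0.586) or without GFP control replicate 3 (0.62).

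Succinyl-CoA ligase pairs an alpha subunit with a beta subunit that sets whether ATP or GTP is formed. Suclg2, the GTP-forming beta subunit, was at 7.89, 7.80 and 7.39 in TFEB muscles and at 8.40, 8.21 and 8.46 in GFP muscles. The groups were apart, with TFEB overexpression replicate 3 the lowest array. Suclg2 fell 1.58-fold (log2 fold change -0.66 ± 0.14 SE, adjusted p = 0.016). Leaving out TFEB overexpression replicate 3 took it under the fold limit (-0.51), and without GFP control replicate 1 or 3 its adjusted p was up to 0.059. The unmoderated test also lost the call (adjusted p = 0.067).

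Sucla2, the ATP-forming beta subunit, was at 12.63, 12.66 and 12.61 in TFEB muscles and at 12.42, 12.40 and 12.46 in GFP muscles. All TFEB arrays were higher, by 0.21 ± 0.063 (SE, adjusted p = 0.046), a call lost at an adjusted p between 0.088 and 0.12 when any 1 of the 6 arrays was left out, and at 0.18 once array medians were made equal (0.14). Suclg1, the alpha subunit that both forms share, was at 11.05, 11.25 and 11.00 in TFEB muscles and at 11.39, 11.32 and 11.46 in GFP muscles. It was lower by a log2 fold change of -0.29 ± 0.089 (SE, adjusted p = 0.046), a call lost without TFEB overexpression replicate 1 or 3 or without GFP control replicate 1 or 3 (adjusted p up to 0.14), with fast fibre scaling (0.080), with repeated quantile normalization (0.073) and in the unmoderated test (0.084).

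The other 7 cycle genes missed the test. Cs, citrate synthase, often used as a measure of mitochondrial content, differed by 0.08 ± 0.066 (SE, 95% confidence interval -0.080 to 0.23, adjusted p = 0.40). The NAD-dependent isocitrate dehydrogenase subunits gave -0.18 ± 0.087 for Idh3a, 0.12 ± 0.068 for Idh3b and -0.09 ± 0.080 for Idh3g (SE). Idh2, the NADP-dependent mitochondrial enzyme, gave 0.24 ± 0.13, and Fh1, fumarase, and Mdh2, mitochondrial malate dehydrogenase, gave 0.04 ± 0.082 and 0.14 ± 0.071 (SE). Their adjusted p-values lay between 0.16 for Idh3a and 0.72 for Fh1. Without TFEB overexpression replicate 3, whose Idh2 value of 10.07 lay among the GFP values, Idh2 passed at an adjusted p of 0.035 with a log2 fold change of 0.38.

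Among the shuttles 7 of 9 genes were measured, and the median log2 fold change was 0.16. All 7 differences were positive, but Slc25a10 was at -0.021 once array medians were made equal, at -0.16 on its other probe set and at -0.061 without GFP control replicate 1, where Got1 was at -0.016. The highest of the 7 differences, 0.39 for Got2, lay under the fold limit, so none could pass the threshold by limma or the unmoderated test. At an unadjusted limma p under 0.05, 3 were higher, against 2692 of all 12393 genes. With no fold limit Got2 and Idh1 were higher at an adjusted p under 0.05 (28.6%, against 16.8% of all genes). Got2, the mitochondrial aspartate aminotransferase, was at 12.34, 12.46 and 12.25 in TFEB muscles and at 11.89, 12.03 and 11.96 in GFP muscles, with the groups apart. Its log2 fold change was 0.39 ± 0.083 (SE, adjusted p = 0.013), which without GFP control replicate 1 was at an adjusted p of 0.0501. Idh1, the cytosolic isocitrate dehydrogenase, was at 9.44, 9.55 and 9.53 in TFEB muscles and at 9.08, 9.24 and 9.34 in GFP muscles. It was higher on each TFEB array by 0.29 ± 0.089 (SE, adjusted p = 0.047), but the call was lost when any of the arrays other than GFP control replicate 3 was left out, with an adjusted p of up to 0.13, and in the unmoderated test (0.085).

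Mdh1, the cytosolic malate dehydrogenase, was at 12.79, 12.64 and 12.50 in TFEB muscles and at 12.42, 12.35 and 12.35 in GFP muscles. The groups were apart and the difference of 0.27 ± 0.091 (SE) was at an adjusted p of 0.061. Mdh1 passed at an adjusted p under 0.05 without TFEB overexpression replicate 3, with fast fibre scaling and with array weights, among other settings. Got1, the cytosolic aspartate aminotransferase, gave 0.08 ± 0.12, Slc25a11, the oxoglutarate/malate carrier, 0.16 ± 0.095, and Slc25a10, the dicarboxylate carrier, 0.05 ± 0.12 (SE), all 3 with overlapping groups. Slc25a13, an aspartate/glutamate carrier, lay between 5.03 and 5.05 in TFEB muscles and between 4.91 and 4.98 in GFP muscles (0.09 ± 0.063 SE, adjusted p = 0.28).

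For 16 members more than 1 probe set was read, and the values above are those of the probe set with the highest mean. Of these 16 genes 10 had probe sets of 1 sign and 6 had both signs, which were Pdha1, Pdhb, Dlat, Idh3g, Dlst and Slc25a10. A second Pdhb probe set was at 7.92, 7.84 and 7.79 in TFEB muscles and at 8.07, 7.97 and 8.16 in GFP muscles, lower on every TFEB array (difference -0.22, adjusted p = 0.076). With the mean of both Pdhb probe sets the log2 fold change was 0.18 and no longer passed (adjusted p = 0.084). Dlat had a second probe set at 0.54 and another at -0.17 (adjusted p = 0.32), and the mean of its 3 probe sets, 0.31, still passed (adjusted p = 0.046).

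Dlst had a second probe set at 6.55, 6.71 and 6.42 in TFEB muscles and at 6.69, 6.59 and 6.67 in GFP muscles, where the groups overlapped (-0.09), and the mean of both, 0.23, missed the test (adjusted p = 0.058). The second Pdha1 probe set was at 11.50, 11.93 and 11.51 in TFEB muscles and at 11.73, 11.67 and 11.85 in GFP muscles (-0.11, adjusted p = 0.57). The 2 probe sets of Idh3g gave -0.09 and 0.03, and those of Slc25a10 gave 0.05 and -0.16, none of them past the test.

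Idh3g was at 12.03, 12.13 and 11.91 in TFEB muscles and at 12.11, 12.08 and 12.15 in GFP muscles on its brighter probe set, with the groups overlapping. Slc25a10 was at 7.38, 7.64 and 7.62 in TFEB muscles and at 7.28, 7.65 and 7.56 in GFP muscles, also overlapping. Where signs agreed, sizes could still differ: the 4 probe sets of Mdh1 ran from 0.03 to 0.31, the lowest of them on a probe set at 3.01 to 3.44 on all 6 arrays, and that of 0.31 passed at an adjusted p of 0.028. The second probe sets of Got2 and Idh1 gave 0.11 and 0.09, and with the mean of their probe sets neither gene passed (0.25 at an adjusted p of 0.12 for Got2, 0.19 at 0.097 for Idh1), which left 0 shuttle genes called. Both Idh1 probe sets are of a kind whose probes match more than 1 transcript, and the Mdh1 probe set of highest mean is of a kind that can cross-hybridise, by the Affymetrix naming of probe sets.

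**Figure D3:**
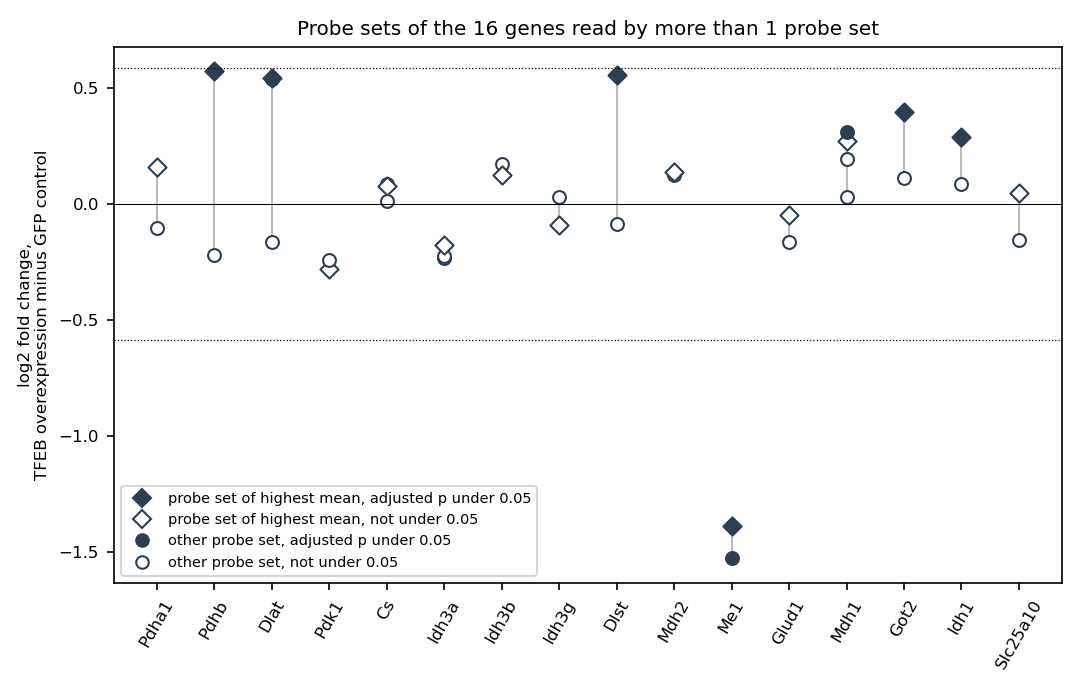
Log2 fold change, TFEB overexpression minus GFP control, of every probe set of the 16 members read by more than 1, with diamonds for the probe set of highest mean and circles for the others, filled where the limma adjusted p is under 0.05, and dotted lines at the 1.5-fold limit. Both Me1 probe sets lie near -1.5, whereas those of Pdhb, Dlat and Dlst span both sides of 0.

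Differences between 2 genes within an array are not moved by a shift of the whole array. Isoforms, subunits and compartments of the same reaction were therefore also paired. Pcx was paired with Pdha1, which acts in another reaction of pyruvate. Of 14 pairs 12 were measured, and the TFEB and GFP arrays were apart in 10 of them. These differences are given as a description, with no test. Single genes were apart in 51.1% of cases, but the share over pairs of genes was not worked out, so the count has no background. Several of the pairs hold a gene called above, such as Suclg2, Pcx, Pdk2 and Got2. Some genes, such as Pdk2 and Idh3a, also enter more than 1 pair. Each value below is the log2 difference within an array minus the GFP mean of that difference.

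Suclg2 minus Sucla2, the GTP-forming against the ATP-forming subunit, was at -0.67, -0.78 and -1.14 in TFEB muscles and at 0.051, -0.12 and 0.070 in GFP muscles, the widest separation among pairs of isoforms. Pcx minus Pdha1, the carboxylating against the oxidising fate of pyruvate, was at -1.07, -1.30 and -1.14 in TFEB muscles and at 0.23, -0.28 and 0.047 in GFP muscles. Both differences were below those of the GFP muscles on all 3 TFEB arrays. Pdha1 minus Pdhb averaged -0.41 ± 0.059 in TFEB muscles, with a GFP SD of 0.023 around 0, but -0.15 when the probe sets of each gene were averaged.

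Among the kinases, Pdk3 minus Pdk2 averaged 0.73 ± 0.27 and Pdk4 minus Pdk2 0.58 ± 0.26 in TFEB muscles, with GFP SDs of 0.24 and 0.20, and both were higher on all TFEB arrays. Pdk1 minus Pdk2 overlapped between the groups. For isocitrate dehydrogenase, Idh2 minus Idh3a averaged 0.42 ± 0.19 and Idh3b minus Idh3a 0.30 ± 0.093 in TFEB muscles (GFP SDs 0.025 and 0.078), whereas Idh1 minus Idh2 overlapped. Idh3g minus Idh3a was the narrowest of the separations, at 0.088 ± 0.038 in TFEB muscles with a GFP SD of 0.041. Between compartments, Got1 minus Got2 averaged -0.31 ± 0.085 and Mdh1 minus Mdh2 0.13 ± 0.11 in TFEB muscles (GFP SDs 0.11 and 0.016). The Got1 pair depended on the probe set, since the other Got2 probe set differed by 0.11, near the 0.08 of Got1.

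**Figure D4:**
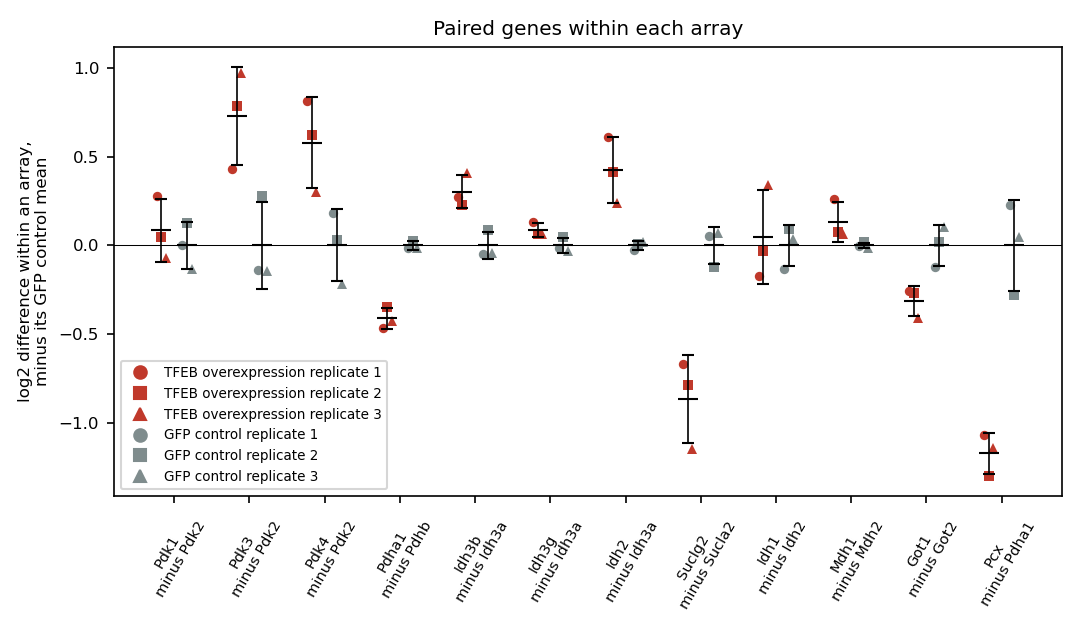
Log2 difference between 2 paired genes within each array, minus the GFP control mean of that difference, with TFEB overexpression (red) left of GFP control (grey) for each pair and bars for mean ± SD over 3 arrays. The groups are apart in 10 of the 12 pairs, and Suclg2 minus Sucla2 and Pcx minus Pdha1 lie lowest.

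The rest of the pathway was read from further lists, each gene by its probe set of highest mean. Agreement between probe sets was not worked out for these lists, where Me2 and Pck2 have 2, Gpt2 and Mmab 3 and Slc25a5 8. Of the other pyruvate and cycle genes, 12 of 18 were measured, 0 passed the threshold in limma, and 3 were higher and 1 lower at an unadjusted p under 0.05. With no fold limit Aco1 was the single gene called (8.33%, against 16.8% of all genes higher). Aco1 is a cytosolic aconitase that doubles as an iron regulatory protein, and it was at 9.30, 9.21 and 9.25 in TFEB muscles and at 8.97, 8.84 and 8.80 in GFP muscles. It was higher on every TFEB array (0.38 ± 0.076 SE, adjusted p = 0.011). The median log2 fold change of this list was 0.085.

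Of 22 other genes of anaplerosis and carbon exit, 18 were measured, and the median was -0.21. Past the threshold 2 rose (11.1%, against 8.62% of all genes) and 4 fell (22.2%, against 4.9%). Me2, the mitochondrial malic enzyme, was at 7.13, 6.95 and 7.36 in TFEB muscles and at 5.54, 6.35 and 5.71 in GFP muscles. Its direction was opposite to that of Me1, with a rise of 2.43-fold (log2 fold change 1.28 ± 0.22 SE, adjusted p = 0.0067). Pck2, the mitochondrial phosphoenolpyruvate carboxykinase, rose 1.52-fold (adjusted p = 0.0036) from GFP values of 5.93 to 6.11.

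The 4 genes that fell were Gpt2, Dbt, Pcca and Mmab. Gpt2, the mitochondrial alanine aminotransferase that links pyruvate to alanine, was at 10.06, 9.94 and 9.79 in TFEB muscles and at 11.22, 10.57 and 11.01 in GFP muscles. With the groups apart, it fell 1.996-fold (log2 fold change -0.997 ± 0.17 SE, adjusted p = 0.0066). Dbt, the core of the branched-chain ketoacid dehydrogenase complex, fell 2.28-fold (adjusted p = 0.0036), while its partners Bckdha (-0.01) and Bckdhb (0.05) and the other alanine aminotransferase gene, Gpt (0.29), missed the test. Pcca, the alpha subunit of propionyl-CoA carboxylase, fell 1.71-fold, and Mmab, which makes the cofactor of methylmalonyl-CoA mutase, fell 1.56-fold (adjusted p = 0.0047 and 0.0048).

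Of 16 other inner membrane carriers and shuttle genes, 13 were measured, and the median was -0.016. Past the threshold 2 rose (15.4%, against 8.62% of all genes) and 1 fell (7.69%, against 4.9%). Slc25a5, an ADP/ATP carrier, rose 2.15-fold and Slc16a1, a plasma membrane carrier of lactate and pyruvate, rose 1.87-fold (adjusted p = 0.0039 and 0.0018). Gpd2, the mitochondrial glycerol phosphate dehydrogenase, which carries reducing equivalents by another shuttle, fell 1.51-fold (adjusted p = 0.0048). Of 16 respiratory chain genes 15 were measured and 0 passed the threshold in limma, with 6 higher at an unadjusted p under 0.05. Without the fold limit Ndufv1, Uqcrc1, Cyc1, Cox4i1 and Cox5b were higher (33.3%, against 16.8% of all genes), and the median was 0.087.

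Markers of other cells and of muscle state were read on the same arrays. Fibroblast markers rose at 6 of 8 measured genes (Col1a1, Col1a2, Col3a1, Lum, Postn and Mfap5; median 1.26) and endothelial markers at 6 of 9 (Pecam1, Cdh5, Kdr, Tie1, Esam and Egfl7; median 0.86). The genes of embryonic and regenerating muscle rose at 10 of 12, namely Myh3, Myh8, Myog, Ncam1, Chrna1, Chrng, Myl4, Actc1, Tnnt2 and Mymk, with a median of 2.497. The shares that rose were 75%, 66.7% and 83.3% in turn, against 8.62% of all genes. The mean deviation of these 3 lists from the 6-array means was positive on all TFEB arrays (0.36 to 1.503) and negative on all GFP arrays (-1.42 to -0.34). Macrophage markers (13 of 14 measured) rose at 1 gene, Cd68 (7.69%, against 8.62% of all genes). Their mean deviations were 0.080 to 0.86 in TFEB muscles, against -1.25, 0.70 and -1.15 in GFP muscles. The high GFP value was that of replicate 2. Among slow fibre genes Tnni1 rose, 1 of 9 (11.1%, against 8.62% of all genes). Among red cell genes Bpgm fell, 1 of 4 measured (25%, against 4.9%). The 15 fast fibre contractile genes had a median GFP mean of 14.1, near the arrays' highest values of 14.34 to 14.37. Whether this limits their differences was not tested. Of the 15, 0 passed the threshold in limma, with 2 higher and 2 lower at an unadjusted p under 0.05. The groups were nonetheless apart for all 15, with 5 higher and 10 lower in TFEB muscles, against 51.1% of all genes. Hba-a1, a red cell gene, was at 3.48 to 3.76 on the 6 arrays, low in their range.

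The measured members, by the same measure, stood between -0.093 and 0.063 on the TFEB arrays and between -0.043 and 0.033 on the GFP arrays. RNA quality, read as the 3′ minus 5′ difference of the beta-actin controls, was 0.34, 0.22 and 0.30 in TFEB muscles and 0.063, 0.077 and 0.037 in GFP muscles, which were apart. That of the Gapdh controls was 0.053, -0.038 and -0.003 in TFEB muscles and -0.061, -0.061 and -0.071 in GFP muscles, also apart. The same difference for the Pcx controls was 2.30, 2.03 and 2.31 in TFEB muscles and 2.197, 2.27 and 2.01 in GFP muscles, which overlapped. The part of other cell types and of RNA quality in the members' differences was not tested. GFP control replicate 2 was the only GFP array with a high macrophage value, near those of TFEB overexpression replicates 2 and 3. Without it, 3 members fell and 0 rose past the threshold in limma, and the log2 fold changes of Me1, Pcx and Suclg2 were -1.47, -1.14 and -0.73.

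**Figure D5:**
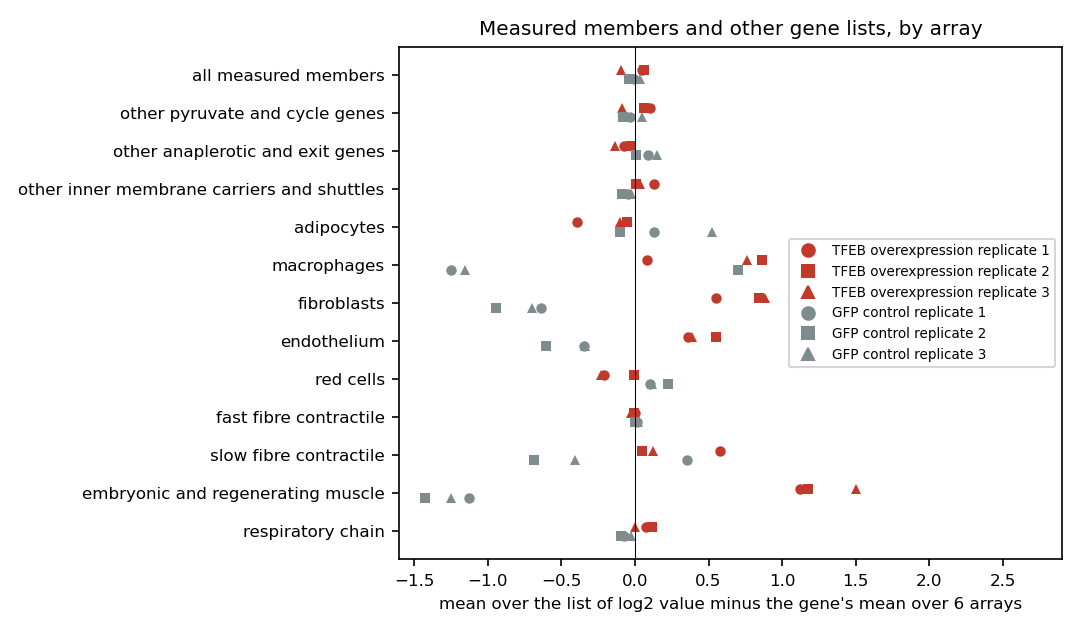
Mean over each gene list of the log2 value minus the gene's 6-array mean (horizontal axis) on each array, red for TFEB overexpression and grey for GFP control. The 31 measured members lie within 0.1 of 0 on all 6 arrays, whereas fibroblast, endothelial and embryonic muscle lists split the groups.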

How the data were processed

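Total RNA of 6 mouse muscles was hybridised to Affymetrix expression arrays, 3 per group. The authors deposited 1 log2 value per probe set and array, and per the labels the submitters used RMA from the affy package (versions not stated). RMA equalises the value distributions of the arrays, so a shift common to most transcripts is lost in part, and arrays carry no count depth, so their number limits the precision. Of 22690 probe sets the 64 Affymetrix controls were left out, and 20380 of the 22626 others had 1 symbol.

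Differences were tested by limma 3.58.1 in R 4.3.3 (lmFit, eBayes, two-sided), adjusting by Benjamini-Hochberg across every probe set in the fit. The limits, adjusted p under 0.05 and 1.5-fold, are those the study gives for its gene list, while its array methods were not among the sources used here. A gene was read by its probe set of highest mean. Log2 fold changes are TFEB overexpression minus GFP control, with limma's standard errors. The fit was tested on simulated data.

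The members, roles, lists, motifs and tests were chosen with earlier results of these data known. All members are accounted for, and values on every array are given for those called or with opposed probe sets. From other lists, genes past the threshold are named. The alternatives were leaving out each array, a replicate block, 2 scalings (equal medians, and the median of fast fibre contractile genes), repeated quantile normalization, a filter at a mean of 6, array weights, an intensity trend with robust variance, 2 other choices of probe set, and an unmoderated test (Student's, equal variance), which the study names for its data in general and not for the arrays. Keeping the Pcx controls in the fit was added after seeing the data. Figures were drawn with Python 3.11.15 and matplotlib 3.10.9.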

Additional observations from a re-analysis of the deposited data

How the results depend on the processing

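Me1 and Pcx stayed past the threshold under all 17 alternatives. The number of members past it, 3, was 2 to 5 with 1 array left out (5 without TFEB overexpression replicate 3) and 6 with fast fibre scaling. The number that rose past it, 0, was 0 to 3 with 1 array left out (3 without TFEB overexpression replicate 3 and 2 without GFP control replicate 3), 3 with fast fibre scaling and 1 with repeated quantile normalization. The genes added were Pdhb, Dlat or Dlst, all just under the limit. The number that fell, 3, was 2 to 3 with 1 array left out and 2 with Student's test, where Suclg2 was at an adjusted p of 0.067.

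With no fold limit, the 13 calls became 6 to 12 with 1 array left out (6 without GFP control replicate 1 and 8 without GFP control replicate 3) and 7 with Student's test. The count also rose, to 15 with the filter on dim probe sets, array weights or the intensity trend with robust variance. It was 14 with fast fibre scaling or the probe set of smallest p. The genes added under these settings were Mdh1, Pdk3 or Pdha1. Those higher, 7, became 4 to 7 with 1 array left out (4 without GFP control replicate 1) and 3 with the mean of a gene's probe sets. They became 9 with fast fibre scaling, the dim filter, array weights or the intensity trend, and 8 with the probe set of smallest p. Those lower, 6, became 2 to 6 with 1 array left out (3 without TFEB overexpression replicate 3, 2 without GFP control replicate 1 and 2 without GFP control replicate 3) and 2 with Student's test. Leaving out an array also leaves fewer samples to estimate the spread. The members' median of 0.094 was 0.025 with equal medians, which shifted every log2 fold change by -0.069, and 0.083 to 0.13 with 1 array left out. Fast fibre scaling shifted them by 0.049, a shift read from genes near the top of the arrays' range.

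Signs turned for 4 members that missed the test. Dld was 0.024 without TFEB overexpression replicate 3, 0.014 without GFP control replicate 3, 0.033 with fast fibre scaling and 0.0042 with repeated quantile normalization. Fh1 was -0.0045 without TFEB overexpression replicate 2 and -0.027 with equal medians. Got1 was -0.016 without GFP control replicate 1. With 1 array left out, Dld ran from -0.063 to 0.024, Fh1 from -0.0045 to 0.088, Got1 from -0.016 to 0.18 and Slc25a10 from -0.061 to 0.13. Slc25a10 was -0.061 without GFP control replicate 1, -0.021 with equal medians, -0.054 with the mean of its probe sets and -0.16 with the probe set of smallest p. The cause of these changes was not tested. Slc25a13 had no value under the filter on dim probe sets.

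The values did not settle whether the replicate numbers of the labels pair the arrays. Deviations from the group means correlated across probe sets at 0.42 for the arrays numbered 1, 0.17 for those numbered 2 and -0.23 for those numbered 3, and TFEB overexpression replicate 3 correlated best with GFP control replicate 2 (0.33). With the replicate block 3 members passed the threshold, 0 higher and 3 lower, and 9 passed with no fold limit, 5 higher and 4 lower, around the same median of 0.094. The calls lost there were those of Pdk2, Suclg1, Sucla2 and Idh1. With the Pcx controls kept in the fit, an alternative added after seeing the data, 3 members passed, and the 4 controls had adjusted p-values of 0.001 to 0.003.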
